A study of Mus musculus with 14 samples.

Results

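The subject is what 3 weeks of culture did to mouse hepatocytes, the main working cells of liver, when the cells were kept as LBDXL and not as BM. It rests on 4 of the 14 RNA-seq libraries of the series, chosen by the group names in the labels: LBDXL 3W libraries 1 and 2 against BM 3W libraries 1 and 2. LBDXL and BM are the labels' names for cultured hepatocytes, and the sources used here do not give what the cells received under each name. Both groups came from livers of C57BL/6 mice and neither is labelled Yap-/-, whereas sex, age and the number of animals are not given. Freshly isolated hepatocytes (FH, 2 libraries) are shown as levels beside them. The remaining groups are BM cells at 1 day (BM 1D) and 3 days (BM 3D), and Yap-/- cells as BM at 3 weeks and freshly isolated. By its title, the series asks whether hepatocyte functions can be kept in culture by holding back YAP activation under mechanical tension. Nothing in the labels ties the 2 libraries of a group to different animals or cultures. The p-values therefore speak only to the spread between libraries, which may be technical and was estimated over all 14 libraries.

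As background, hepatocytes in culture on a stiff surface flatten, lay down actin stress fibres and lose the expression of liver enzymes, a process called dedifferentiation. YAP is a transcriptional co-activator that the Hippo kinases keep out of the nucleus. Under tension it enters the nucleus, binds the TEAD factors and switches on genes such as Ctgf, Cyr61 and Ankrd1. The liver programme is held by a network of factors around HNF4A, and the receptors CAR, PXR and AHR switch on drug-metabolising cytochrome P450 genes.

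The libraries of LBDXL 3W held 20431393 and 18905461 counts, those of BM 3W 19546748 and 19756539, and the 14 libraries ran from 15501005 to 21220365. Levels are TMM-scaled CPM, that is counts scaled to a common library size, log2 fold changes are LBDXL 3W over BM 3W with ± their standard error, and a gene is called, or said to have risen or fallen, at an adjusted p under 0.05 by the quasi-likelihood test of edgeR across 14100 genes. Library pairs of a group were less alike after culture: the median absolute log2 difference between libraries of 1 group was 0.479 in LBDXL 3W, 0.315 in BM 3W and 0.114 in FH, and that between the means of LBDXL 3W and BM 3W was 0.851. Albumin RNA alone took 17.3 and 11.4% of the counts in LBDXL 3W, against 4.35 and 0.482% in BM 3W. Across genes, which are not independent replicates, Pearson's r with the FH mean was 0.875 and 0.912 in LBDXL 3W, against 0.662 and 0.606 in BM 3W.

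Of 14100 genes tested, 2980 rose in LBDXL 3W (21.1%) and 3343 fell (23.7%), together 6323 called (44.8%). The median log2 fold change over all tested genes was -0.02. In 366 of the genes that fell both LBDXL 3W libraries were at 0 counts, and in 13 that rose both BM 3W libraries were, so that their fitted folds are no measure of size. Among genes with counts in both groups, the median was 1.40 over 2967 rises and -3.04 over 2977 falls, and 71 rises and 320 falls lay beyond 6 on the log2 scale. The groups' libraries did not overlap in 10297 genes (73.0% of those tested), with LBDXL 3W the higher in 34.7% and the lower in 38.3%. The counts and medians of gene lists below are to be read against these shares and this median. With total counts alone as the scale, the median of all genes moved by -0.82 on the log2 scale and the split was 1135 rises and 6650 falls. The fit of these 4 libraries alone, with their own spread, called 3997 genes (1437 rises and 2560 falls). Without LBDXL 3W 2, 3993 genes were called, and without BM 3W 2, 4156.

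**Figure D1:**
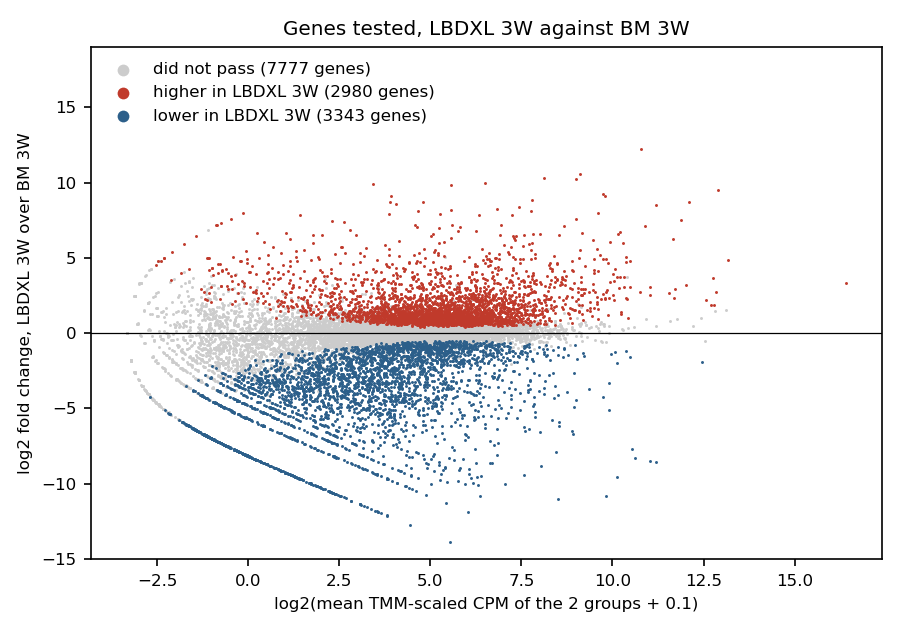
Each point is 1 of the 14100 genes tested, with the log2 of the mean CPM of both groups plus 0.1 on the x axis and the log2 fold change of LBDXL 3W over BM 3W on the y axis. The 3343 genes lower in LBDXL 3W are blue and the 2980 higher ones red, and the curved lines at the lower left are genes with 0 counts in LBDXL 3W libraries.

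The label "hepatocytes" was checked against marker genes. The summed level of 10 hepatocyte markers was 215370 and 183060 CPM in LBDXL 3W, against 32271 and 3269 in BM 3W and 198410 and 194580 in FH. Alb, serum albumin, made up 186890 and 129830 CPM of the sum in LBDXL 3W and a mean of 152500 in FH. The sum lay near FH in LBDXL 3W, but single markers lay above FH, as Cyp3a11 did, or below it, as Cps1 and Tat did. Markers of other liver cells were present as well, and they moved with the groups. The 16 Kupffer cell and macrophage markers summed to 35.6 and 42.2 CPM in LBDXL 3W, against 3823 and 4463 in BM 3W and 255 and 195 in FH. Of these, 14 fell. The other 2, Clec4f and Timd4, which mark resident Kupffer cells, did not pass, although Clec4f was called lower with total counts as the scale (adjusted p = 0.0178) and in DESeq2 (adjusted p = 0.0291). Clec4f was at 0 counts in both LBDXL 3W libraries, against 0.24 and 0.0898 CPM in BM 3W and 22.2 in FH. Timd4 was at 0 counts in both LBDXL 3W libraries as well, against 0.137 and 0 CPM in BM 3W and 2.46 in FH. In BM 3W these 2 were thus below FH, but Cd5l, a Kupffer cell marker among those that fell, was above it. Cd5l had 0.106 and 0.0604 CPM in LBDXL 3W, against 78.7 and 96.0 in BM 3W and 25.0 in FH.

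Stellate cell and fibroblast markers summed to 785 and 359.6 CPM in LBDXL 3W, against 3908 and 2276 in BM 3W and 170.4 and 144 in FH. Among the 19 tested, 0 rose, 13 fell and 6 did not pass. The count of falls was 8 without LBDXL 3W 2 and 7 without BM 3W 1. Mesothelial markers summed to 5.34 and 0.967 CPM in LBDXL 3W, against 70.2 and 43.1 in BM 3W, and all 5 that could be tested fell (Msln, Wt1, Gpm6a, Krt19 and Podxl), but 2 without LBDXL 3W 2 and 3 without BM 3W 1. The 15 lymphocyte and neutrophil markers were at 0 CPM in both LBDXL 3W libraries, against sums of 0.892 and 0.898 CPM in BM 3W, and 1 of the 4 tested fell (Cd4), but 0 in edgeR without LBDXL 3W 1, LBDXL 3W 2 or BM 3W 1. The mesothelial sums in FH were 4.69 and 3.64 CPM. Of the mesothelial markers, Podxl also lost its call in the fit of the 4 libraries alone, and Krt19 is on the list of biliary and progenitor genes too. Endothelial markers separated the libraries of LBDXL 3W from each other. They summed to 222 and 10.1 CPM in LBDXL 3W libraries 1 and 2, against 218 and 269.7 in BM 3W. Pecam1, an adhesion molecule of endothelium, had 31 and 0.785 CPM in LBDXL 3W, against 0.24 and 0.928 in BM 3W, and Cdh5, the cadherin of endothelial junctions, 38 and 0.725 CPM, against 1.71 and 1.59. The high value of both was that of LBDXL 3W library 1, and the groups overlapped. With Lyve1 and Erg they were the 4 of 16 endothelial markers that rose, at log2 fold changes of 4.73, 3.55, 3.42 and 5.0, while Stab1 and Vwf fell, at -2.83 and -5.71. Without LBDXL 3W 1 none of the 16 rose in edgeR and 5 fell, without LBDXL 3W 2 9 rose, without BM 3W 1 1 rose, and without BM 3W 2 2 rose and 1 fell. The part of these cells in the differences below was not tested. In bulk RNA, fewer cells of a type and less RNA per cell cannot be told apart.

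**Figure D2:**
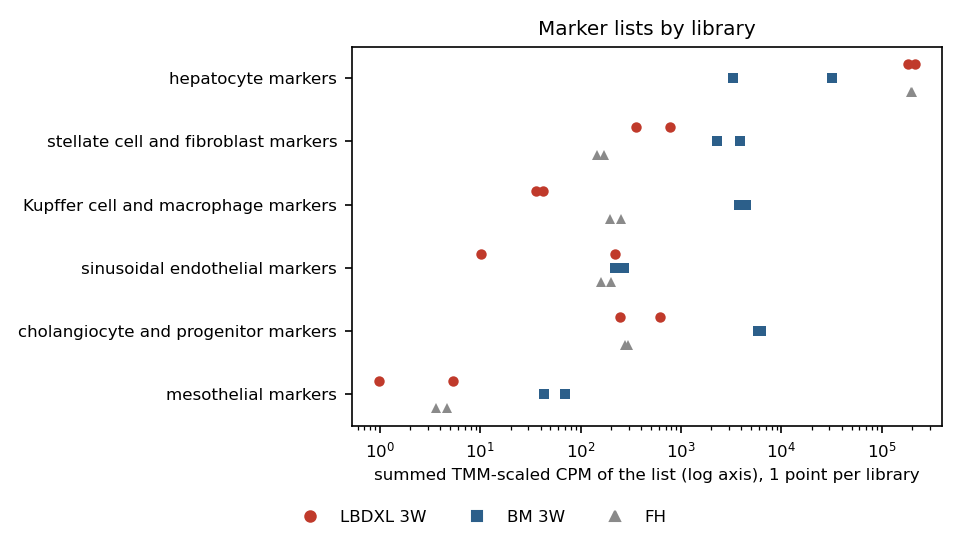
Summed TMM-scaled CPM of each marker list on a log axis, with 1 point per library for LBDXL 3W (red circles), BM 3W (blue squares) and FH (grey triangles). Macrophage markers lie at 35.6 and 42.2 CPM in LBDXL 3W, against 3823 and 4463 in BM 3W, and the LBDXL 3W libraries part from each other for endothelial markers.

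The upstream sequence of 3 genes that stand for the opposing programmes is shown, as the 250 bases before the RefSeq start in GRCm38.p6, read in the direction of the gene. Capitals mark CATTCC or its reverse complement, the core of the TEAD motif, in Ankrd1 and Cyr61, and CAAAGTCC, a core of the HNF4 motif, in Cyp3a11.
Ankrd1, chr19:36119845-36120094, minus strand: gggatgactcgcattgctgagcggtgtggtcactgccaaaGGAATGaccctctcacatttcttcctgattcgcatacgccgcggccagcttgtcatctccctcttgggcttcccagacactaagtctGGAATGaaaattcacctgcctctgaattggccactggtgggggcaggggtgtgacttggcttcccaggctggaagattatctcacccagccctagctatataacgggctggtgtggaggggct
Cyr61, chr3:145649986-145650235, minus strand: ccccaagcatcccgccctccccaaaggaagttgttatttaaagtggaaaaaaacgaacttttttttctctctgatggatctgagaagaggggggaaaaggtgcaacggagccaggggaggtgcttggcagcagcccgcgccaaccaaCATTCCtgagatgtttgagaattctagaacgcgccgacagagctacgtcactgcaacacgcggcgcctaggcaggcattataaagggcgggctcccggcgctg
Cyp3a11, chr5:145879855-145880104, minus strand: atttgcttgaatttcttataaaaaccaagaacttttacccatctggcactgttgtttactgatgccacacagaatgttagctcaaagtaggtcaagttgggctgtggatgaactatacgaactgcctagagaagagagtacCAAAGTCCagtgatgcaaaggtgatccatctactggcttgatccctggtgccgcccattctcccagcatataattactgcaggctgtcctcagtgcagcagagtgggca
Ankrd1 held a match 210 and another 123 bases before its start, and Cyr61 held 1 at 103 bases. The match of Cyp3a11 lay 109 bases before its start. Searched on both strands, the TEAD letters were in 12.6% of 32851 RefSeq promoters of this length and the HNF4 letters in 1.20%. Promoters were matched for 11213 tested genes. The TEAD letters were in 12.6% of those that rose, 15.2% of those that fell and 12.5% of those that did not pass. The HNF4 letters were in 2.70, 1.52 and 1.44% of the same classes. A match describes letters and does not show binding.

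The largest rises were enzymes of drug and lipid metabolism. Cyp2b10, the P450 that CAR induces (chromosome 7, 25897658-25926624), had 2698 and 4348 CPM in LBDXL 3W, against 0.274 and 1.2 in BM 3W and a mean of 1.63 over the 2 libraries of FH (log2 fold change 12.20 ± 1.07, adjusted p = 2.57e-05). It was high in both LBDXL 3W libraries and low in BM 3W and FH. Cyp3a11, the main PXR-induced P450 (chromosome 5, 145854607-145879854), had 8728 and 21955 CPM in LBDXL 3W, against 30.5 and 11.6 in BM 3W and 966 in FH (log2 fold change 9.51 ± 1.27, adjusted p = 2.72e-04). By FPKM, which accounts for length, it ranked 5 of all genes in LBDXL 3W and 4662 in BM 3W. Cyp1a1, an AHR-induced P450, had 159 and 1893 CPM in LBDXL 3W, against 0.274 and 1.38 in BM 3W and 0.675 in FH (log2 fold change 10.25 ± 1.90, adjusted p = 0.00166), and LBDXL 3W library 2 was by far the higher.

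The other leading rises were led by library 2 of LBDXL 3W in some genes and by library 1 in others. Cyp2f2, a P450 of periportal hepatocytes, had 339 and 1862 CPM in LBDXL 3W, against 0.343 and 1.05 in BM 3W (log2 fold change 10.60 ± 0.97, adjusted p = 3.47e-05). Etnppl, a phospholyase, had 24.3 and 337 CPM in LBDXL 3W, against 0.171 and 0.18 in BM 3W (log2 fold change 9.95 ± 1.21, adjusted p = 1.58e-04). Sult2a1, a sulfotransferase of bile acids and steroids, had 187 and 2.54 CPM in LBDXL 3W, against 0.103 and 0.0898 in BM 3W (log2 fold change 9.86 ± 1.84, adjusted p = 0.00218), and its high value was that of library 1. Sult2a2, Akr1d1, Cyp3a25, Cyp4a14 and Ugt1a9 were also among the 12 largest rises, with log2 fold changes of 8.69, 8.87, 9.13, 8.71 and 9.11. Of these, Cyp4a14 had 1.06 and 58.3 CPM in LBDXL 3W, against 0.103 and 0.0299 in BM 3W, so that its high value was that of library 2. The call of Cyp4a14 was lost in limma on log2(FPKM + 1), with and without a filter. The Cyp2b, Cyp3a, Cyp2c, Sult and Gstm families hold near-identical copies, so that reads may have been split between members.

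Regulators and targets of CAR, PXR and AHR moved together in most members. Of 18 tested, 13 were called higher, 1 lower and 4 neither, with a median log2 fold change of 3.18. Nr1i3, which encodes CAR, had 28.8 and 107 CPM in LBDXL 3W, against 2.5 and 0.419 in BM 3W (log2 fold change 5.55 ± 0.80, adjusted p = 4.22e-04), and Nr1i2, which encodes PXR, 78.7 and 65.9 CPM, against 9.64 and 6.95 (log2 fold change 3.12 ± 0.63, adjusted p = 0.0026). Both stayed below their FH means of 263 and 137 CPM. Cyp2c29 had 1564 and 7798 CPM in LBDXL 3W, against 15.4 and 9.79 in BM 3W and 1715 in FH (log2 fold change 8.54 ± 1.11, adjusted p = 2.26e-04). Por, the reductase that feeds electrons to P450s, had 744 and 662 CPM in LBDXL 3W, against 72.9 and 76.1 in BM 3W (log2 fold change 3.24 ± 0.28, adjusted p = 2.37e-05), with the 2 libraries of each group close together. Cyp1b1, an AHR-responsive P450 of mesenchymal cells, was the 1 member that fell, at 0.106 and 0.483 CPM in LBDXL 3W, against 16.7 and 11 in BM 3W (log2 fold change -5.55 ± 0.99, adjusted p = 0.00137). Nr1i3, Nr1i2 and Cyp1b1 were chosen after their values were seen.

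Phase I enzymes, which oxidise or hydrolyse foreign compounds, and phase II enzymes, which conjugate them, showed the same direction. Of 32 phase I enzymes, 27 were called higher, 0 lower and 5 neither, with a median of 5.26 on the log2 scale, and of 30 phase II enzymes 23 were called higher, 0 lower and 7 neither, with a median of 2.78. Gstm3, a glutathione transferase, had 1991 and 5625 CPM in LBDXL 3W, against 20.5 and 35.3 in BM 3W and 86.2 in FH (log2 fold change 7.09 ± 0.78, adjusted p = 9.50e-05). Sult1d1, a sulfotransferase, had 851 and 1921 CPM in LBDXL 3W, against 27.4 and 10.1 in BM 3W and 430.1 in FH (log2 fold change 6.21 ± 0.58, adjusted p = 3.74e-05). Ces2a, a carboxylesterase, had 181 and 687 CPM in LBDXL 3W, against 2.02 and 1.17 in BM 3W (log2 fold change 8.09 ± 0.83, adjusted p = 6.49e-05). Cyp2e1, the ethanol-oxidising P450 of pericentral hepatocytes, did not pass (log2 fold change 1.80 ± 1.14, adjusted p = 0.222). It had 25.8 and 248 CPM in LBDXL 3W, against 74.4 and 4.19 in BM 3W and 20512 in FH, so that the groups overlapped and both stood far below FH. Without BM 3W 1 it passed (log2 5.03, adjusted p = 0.0135), and without LBDXL 3W 2 its sign turned (log2 -0.60, adjusted p = 0.733). Of 20 organic ion and drug transporters, 11 were called higher, 1 lower and 8 neither, and 7 rose without LBDXL 3W 2. Slco1a4, an organic anion uptake carrier, had 196 and 261 CPM in LBDXL 3W, against 1.1 and 0.419 in BM 3W (log2 fold change 8.24 ± 1.02, adjusted p = 1.69e-04). The 1 that fell was Abcc4, an export pump of the basolateral membrane, named for that reason (log2 fold change -3.25 ± 1.0, adjusted p = 0.0219), and its call was lost without LBDXL 3W 1, LBDXL 3W 2 or BM 3W 2 (adjusted p = 0.055, 0.123 and 0.111).

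**Figure D3:**
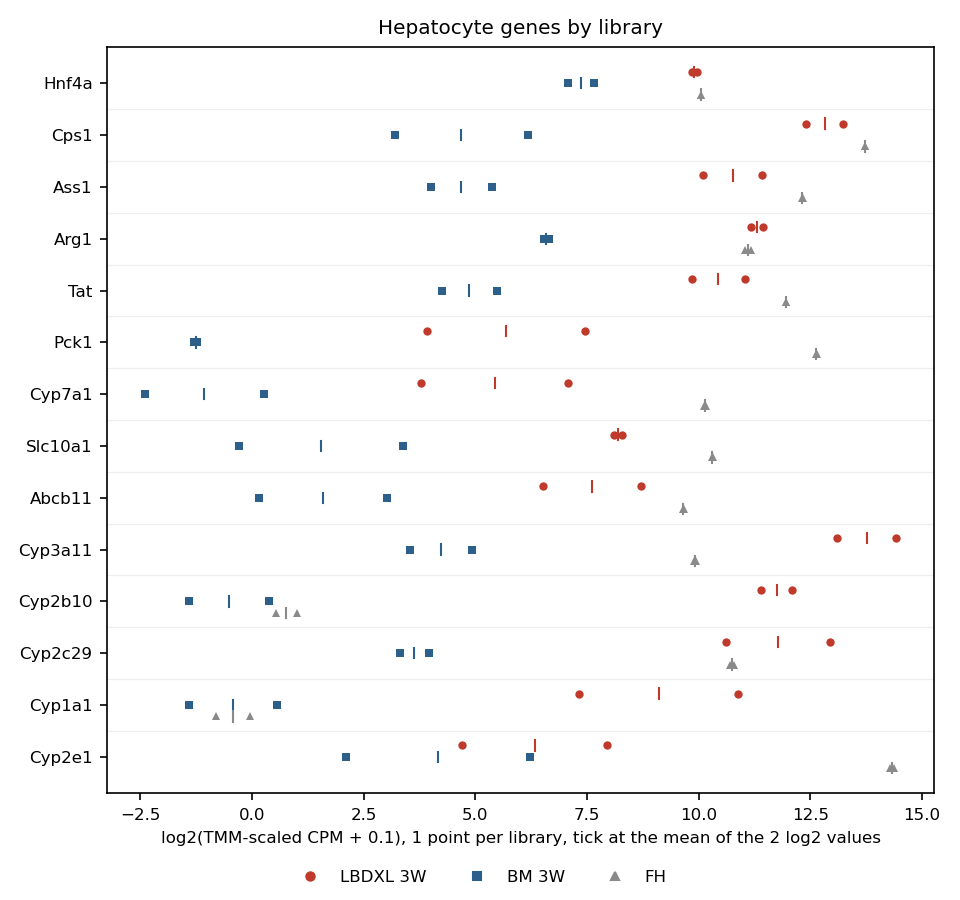
Levels of hepatocyte genes as log2(CPM + 0.1), with 1 point per library and a tick at the mean of the log2 values, for LBDXL 3W (red circles), BM 3W (blue squares) and FH (grey triangles). Cyp2b10 and Cyp1a1 lie far above FH in LBDXL 3W, whereas Pck1, Cyp7a1 and Cyp2e1 lie below FH, and the BM 3W libraries overlap the LBDXL 3W libraries for Cyp2e1.

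Secreted liver proteins gave the largest gains in CPM. Alb, which encodes the main plasma protein, had 186890 and 129830 CPM in LBDXL 3W, against 29183 and 2849.8 in BM 3W and 152500 in FH (log2 fold change 3.31 ± 1.16, adjusted p = 0.0381). The groups did not overlap, but the BM 3W libraries differed widely from each other. The call was lost in the fit of these 4 libraries alone (adjusted p = 0.436) and without LBDXL 3W 1 (adjusted p = 0.051). It was also lost without BM 1D 1 (adjusted p = 0.0506), and without each single library of BM 3W Yap-/-, FH Yap-/- and FH (adjusted p between 0.0503 and 0.0651). Apoa1, the structural protein of high-density lipoprotein, had 10069 and 15422 CPM in LBDXL 3W, against 1891 and 126 in BM 3W (log2 fold change 3.66 ± 0.95, adjusted p = 0.0103). The call of Apoa1 was lost in the fit of the 4 libraries alone. Serpina3k, a plasma serine protease inhibitor, had 6453 and 6396 CPM in LBDXL 3W, against 136 and 29.3 in BM 3W (log2 fold change 6.28 ± 0.82, adjusted p = 2.29e-04), and the BM 3W libraries lay far below both.

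Plasma proteins, apolipoproteins and the complement and coagulation factors are all made mainly by hepatocytes. Of 24 plasma proteins, 17 were called higher, 0 lower and 7 neither, with a median log2 fold change of 2.30. Of 22 apolipoproteins and lipoprotein assembly genes, 15 were called higher, 0 lower and 7 neither, with a median of 2.54, and of 32 complement and coagulation genes, 22 were called higher, 1 lower and 9 neither. In the fit of the 4 libraries alone the rises numbered 3, 6 and 9 in these lists. The 1 that fell was Pros1, protein S of the anticoagulant pathway, named for that reason (log2 fold change -1.10 ± 0.38, adjusted p = 0.0362), and 3 of the list fell without LBDXL 3W 1 and 2 with total counts as the scale, but 0 in edgeR without LBDXL 3W 2, without BM 3W 1 and without BM 3W 2. Its call was lost too without FH 1 and each single library of BM 3W Yap-/- and FH Yap-/- (adjusted p between 0.0514 and 0.058). Apoc3, an inhibitor of lipoprotein lipase, had 1409 and 1405 CPM in LBDXL 3W, against 81.1 and 13.6 in BM 3W (log2 fold change 4.89 ± 0.88, adjusted p = 0.00144). F9, a clotting protease, had 282 and 561 CPM in LBDXL 3W, against 40.3 and 12.3 in BM 3W (log2 fold change 4.0 ± 0.52, adjusted p = 2.27e-04). Mbl2, a mannose-binding lectin that starts complement, had 94.5 and 193 CPM in LBDXL 3W, against 9.26 and 2.46 in BM 3W (log2 fold change 4.62 ± 0.63, adjusted p = 2.89e-04). In each of these 3 genes the BM 3W libraries were the lower pair without overlap.

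Genes of nitrogen disposal rose in nearly every case. Of 13 urea cycle and ammonia genes, 12 were called higher, 0 lower and 1 neither, with a median log2 fold change of 4.72, and of 33 amino acid catabolism genes, 29 were called higher, 0 lower and 4 neither, with a median of 4.93. Cps1, the mitochondrial entry enzyme of the urea cycle, had 5418 and 9613 CPM in LBDXL 3W, against 72.5 and 9.07 in BM 3W and 13461 in FH (log2 fold change 7.53 ± 1.02, adjusted p = 2.88e-04). Ass1, which joins citrulline and aspartate, had 1095 and 2752 CPM in LBDXL 3W, against 41.1 and 16.1 in BM 3W and 5116 in FH (log2 fold change 6.07 ± 0.63, adjusted p = 6.56e-05). Arg1, the arginase that releases urea, had 2295 and 2777 CPM in LBDXL 3W, against 92.9 and 99.5 in BM 3W and 2198 in FH (log2 fold change 4.72 ± 0.35, adjusted p = 9.43e-06). Arg1 thus stood at about its FH level in LBDXL 3W, and Cps1 and Ass1 below it. Among the amino acid enzymes, Tat, which starts tyrosine breakdown, had 924 and 2083 CPM in LBDXL 3W, against 44.4 and 19 in BM 3W (log2 fold change 5.57 ± 0.68, adjusted p = 1.58e-04), and Uroc1, of histidine breakdown, 278 and 595 CPM, against 11.1 and 2.61 (log2 fold change 6.0 ± 0.71, adjusted p = 1.38e-04). Bhmt, which remethylates homocysteine with betaine, had 5370.2 and 12156 CPM in LBDXL 3W, against 35.6 and 6.89 in BM 3W (log2 fold change 8.69 ± 1.31, adjusted p = 5.25e-04). These genes were higher in both LBDXL 3W libraries than in either BM 3W library.

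Genes of glucose output rose in nearly every case. Of 16 gluconeogenesis and glycogen genes, 15 were called higher, 0 lower and 1 neither, with a median log2 fold change of 3.63. Pck1, which commits carbon to gluconeogenesis, had 15 and 175 CPM in LBDXL 3W, against 0.309 and 0.329 in BM 3W and 6351 in FH (log2 fold change 8.19 ± 1.05, adjusted p = 2.15e-04). Both LBDXL 3W libraries lay above BM 3W and far below FH. G6pc, which releases free glucose, had 104 and 257 CPM in LBDXL 3W, against 6.38 and 3.83 in BM 3W (log2 fold change 5.14 ± 0.91, adjusted p = 0.00132). Of 17 genes on a glycolysis list, which was not limited to forms absent from hepatocytes, 4 were called higher, 6 lower and 7 neither. Hk2, a hexokinase of muscle and proliferating cells, had 2.22 and 1.21 CPM in LBDXL 3W, against 24.5 and 33.9 in BM 3W (log2 fold change -4.08 ± 0.57, adjusted p = 3.55e-04), and Hk1, the widely expressed hexokinase, 10.1 and 3.14 CPM, against 63.3 and 55.4 (log2 fold change -3.15 ± 0.53, adjusted p = 9.84e-04). The 4 that rose were Gapdh, Pgk1, Gpi1 and Pdk1, at log2 fold changes of 1.57, 1.35, 1.40 and 1.64. Without BM 3W 1 and without BM 3W 2, 1 rose, with total counts as the scale 0, and without BM 3W 2 3 fell.

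Bile acid genes rose in most cases. Of 25 bile acid genes, 21 were called higher, 1 lower and 3 neither, with a median log2 fold change of 2.75. Cyp7a1, the rate-limiting enzyme of bile acid synthesis, had 13.7 and 135 CPM in LBDXL 3W, against 1.1 and 0.0898 in BM 3W and 1128 in FH (log2 fold change 6.98 ± 1.40, adjusted p = 0.00259). Slc10a1, the bile acid uptake carrier NTCP, had 276 and 311 CPM in LBDXL 3W, against 10.3 and 0.719 in BM 3W (log2 fold change 5.74 ± 1.04, adjusted p = 0.00144). Abcb11, the canalicular bile salt export pump, had 91.7 and 419 CPM in LBDXL 3W, against 7.99 and 1.02 in BM 3W and 807 in FH (log2 fold change 5.83 ± 0.92, adjusted p = 6.87e-04). All 3 were higher in LBDXL 3W without overlap and below FH in each culture library. Akr1c6, a hydroxysteroid dehydrogenase, was the 1 member that fell (log2 fold change -4.85 ± 1.10, adjusted p = 0.00514), with 2.27 and 2.96 CPM in LBDXL 3W, against 128 and 24 in BM 3W, and was chosen after its values were seen.

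Of 27 genes of fatty acid oxidation and ketogenesis, 21 were called higher, 1 lower and 5 neither, and of 30 of cholesterol and fatty acid synthesis, 21 were called higher, 0 lower and 9 neither. With total counts as the scale, the rises numbered 13 and 14. Etfdh, which passes electrons from fatty acid oxidation to the respiratory chain, had 232 and 209.5 CPM in LBDXL 3W, against 53.6 and 40.2 in BM 3W (log2 fold change 2.23 ± 0.26, adjusted p = 1.27e-04). Thrsp, a lipogenic regulator, had 163 and 586 CPM in LBDXL 3W, against 5.73 and 2.37 in BM 3W (log2 fold change 6.53 ± 0.66, adjusted p = 6.05e-05), and Acaca, acetyl-CoA carboxylase, 578 and 496 CPM, against 123 and 81.8 in BM 3W and 172 in FH (log2 fold change 2.39 ± 0.29, adjusted p = 1.55e-04). Acaca was thus above FH in both LBDXL 3W libraries. Bdh1, a ketone body enzyme chosen after its values were seen, fell, at 2.64 and 1.87 CPM in LBDXL 3W, against 55.6 and 23.6 in BM 3W (log2 fold change -4.12 ± 0.73, adjusted p = 0.00135). Of 28 subunits of the respiratory chain and ATP synthase, 26 were called higher, 0 lower and 2 neither, but 4 rose with total counts as the scale, 12 without LBDXL 3W 2 and 16 without BM 3W 1.

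Hepatocyte transcription factors rose in most cases. Of 27 tested, 19 were called higher, 0 lower and 8 neither, with a median log2 fold change of 1.69, and 11 rose with total counts as the scale. Hnf4a, the central factor of the hepatocyte programme, had 919 and 993 CPM in LBDXL 3W, against 201 and 135 in BM 3W and 1061 in FH (log2 fold change 2.51 ± 0.33, adjusted p = 2.40e-04). The libraries of each group were close to each other, and LBDXL 3W stood just below FH. Klf15, a factor for amino acid breakdown and gluconeogenesis, had 113 and 274 CPM in LBDXL 3W, against 10 and 3.83 in BM 3W (log2 fold change 4.80 ± 0.54, adjusted p = 1.08e-04), and Hlf, a clock-output factor, 45.6 and 66.6 CPM, against 7.92 and 3.32 (log2 fold change 3.32 ± 0.39, adjusted p = 1.38e-04).

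Zonation genes did not move as 1 block. Of 19 periportal genes, 13 were called higher, 2 lower and 4 neither, with a median log2 fold change of 4.72, whereas of 20 pericentral Wnt targets, 4 were called higher, 8 lower and 8 neither, with a median of -0.79. Glul, glutamine synthetase, had 265 and 325 CPM in LBDXL 3W, against 103 and 73.6 in BM 3W and 2226 in FH (log2 fold change 1.74 ± 0.31, adjusted p = 0.00125). It rose and yet stayed far below FH. The others that rose were Gstm3, described above, Cyp1a2 (log2 fold change 6.73) and Rhbg, an ammonium channel (log2 fold change 5.03). The 2 periportal genes that fell were Cdh1 (log2 fold change -1.85) and Ctsc, a lysosomal protease (log2 fold change -2.63). Among the pericentral genes that fell were feedback genes of the Wnt pathway. Nkd1, a Wnt inhibitor, had 1.27 and 1.09 CPM in LBDXL 3W, against 10.9 and 6.95 in BM 3W (log2 fold change -2.91 ± 0.43, adjusted p = 4.48e-04), and Axin2, a scaffold of the beta-catenin destruction complex, 0.846 and 0.302 CPM, against 9.53 and 18.8 (log2 fold change -4.59 ± 0.70, adjusted p = 5.49e-04). Lgr5, an R-spondin receptor, was at 0 counts in both LBDXL 3W libraries, against 2.09 and 0.809 CPM in BM 3W and 11.5 in FH, at least 8.54-fold lower (adjusted p = 4.60e-04). Slc1a2, a glutamate transporter of pericentral cells, had 0 and 0.0604 CPM in LBDXL 3W, against 3.5 and 4.64 in BM 3W and 671 in FH (log2 fold change -6.88 ± 0.54, adjusted p = 1.34e-05). Nkd1, Axin2, Lgr5 and Slc1a2 were lower in LBDXL 3W without overlap. Axin2, Lgr5, Cyp1a2, Rhbg and Ctsc were chosen after their values were seen.

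**Figure D4:**
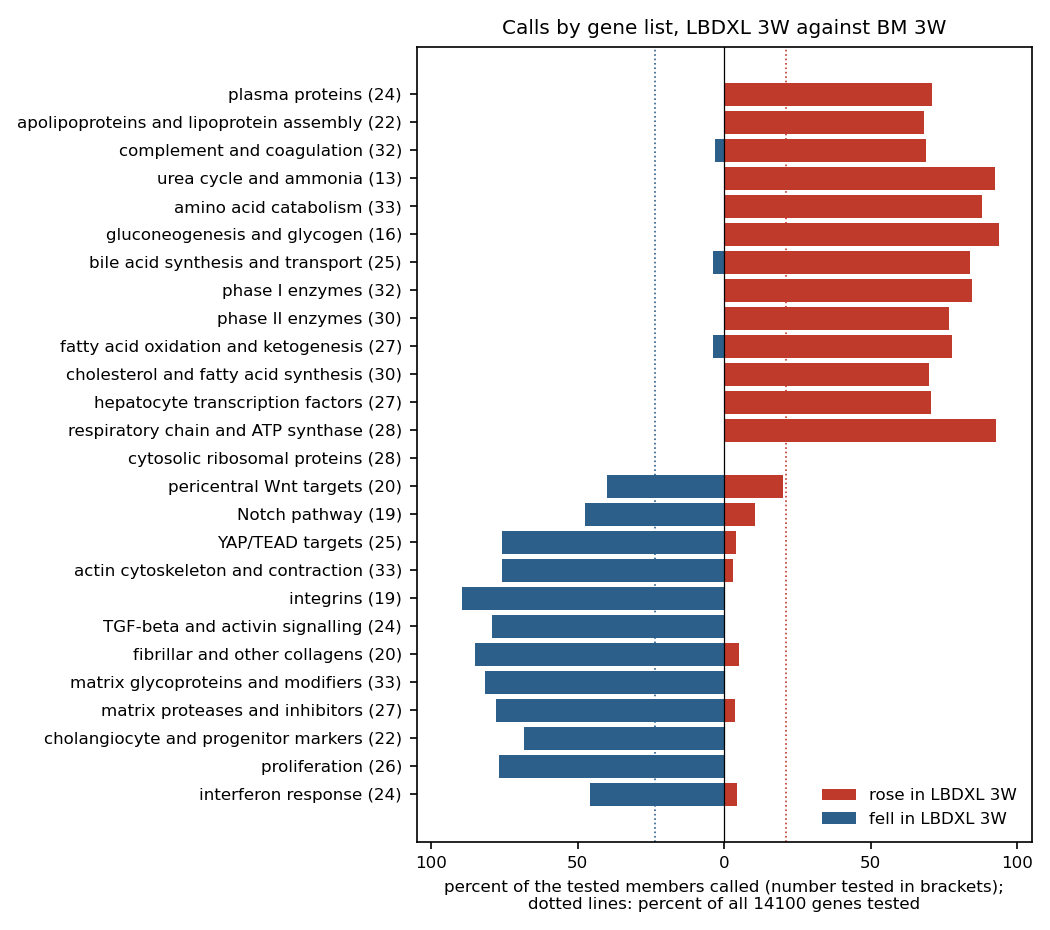
Percent of the tested members of each gene list that rose (red, to the right) or fell (blue, to the left) in LBDXL 3W, with the number tested in brackets and dotted lines at the percent of all tested genes, 21.1% higher and 23.7% lower. Liver enzyme and plasma protein lists extend to the right, matrix, actin, YAP/TEAD and proliferation lists to the left, and none of the 28 ribosomal proteins was called.

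The study's named regulator, Yap1, did not pass. It had 97.7 and 96.3 CPM in LBDXL 3W, against 80.2 and 95.5 in BM 3W and 92.6 in FH (log2 fold change 0.14 ± 0.18, adjusted p = 0.555). The levels lay within a narrow range in all 3 groups, and its sign turned with total counts as the scale (log2 -0.69). The TEAD targets of YAP nevertheless fell in most cases. Of 25 tested, 1 were called higher, 19 lower and 5 neither, with a median log2 fold change of -2.60. Ctgf, a matricellular protein (chromosome 10, 24595442-24598683), had 90 and 18.7 CPM in LBDXL 3W, against 719 and 902 in BM 3W and 1.79 in FH (log2 fold change -3.90 ± 0.64, adjusted p = 8.54e-04). Ankrd1, a nuclear repeat protein whose promoter is shown above, had 30.2 and 6.16 CPM in LBDXL 3W, against 236 and 191 in BM 3W and 0.397 in FH (log2 fold change -3.55 ± 0.73, adjusted p = 0.00304). Both were lower than BM 3W in each LBDXL 3W library, above FH, and higher in library 1 than in library 2.

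Cyr61, another matricellular target, had 84.7 and 9.73 CPM in LBDXL 3W, against 256 and 279 in BM 3W and 13.8 in FH (log2 fold change -2.50 ± 0.86, adjusted p = 0.0357). Its call was lost without LBDXL 3W 2 (adjusted p = 0.122), without BM 3W 1 (adjusted p = 0.0741), without BM 3W 2 (adjusted p = 0.0918) and in the fit of the 4 libraries alone (adjusted p = 0.109). It was also lost without each single library of BM 3W Yap-/- and FH Yap-/- (adjusted p between 0.0508 and 0.0535). Axl, a receptor tyrosine kinase, had 6.61 and 2.6 CPM in LBDXL 3W, against 253 and 201 in BM 3W and 6.78 in FH (log2 fold change -5.61 ± 0.45, adjusted p = 1.50e-05), and its LBDXL 3W libraries lay at or below FH. Amotl1, an angiomotin that binds YAP, had 7.08 and 3.38 CPM in LBDXL 3W, against 60 and 54.6 in BM 3W (log2 fold change -3.45 ± 0.40, adjusted p = 1.30e-04). Wwc1, which encodes the Hippo scaffold KIBRA, was the 1 target that rose (log2 fold change 0.60 ± 0.20, adjusted p = 0.0284), with 113 and 93.2 CPM in LBDXL 3W, against 76.3 and 59.7 in BM 3W. It was chosen after its values were seen, its sign turned with total counts as the scale (log2 -0.21), and its call was lost without LBDXL 3W 1 (adjusted p = 0.126), BM 3W 2 (adjusted p = 0.192), FH 1 (adjusted p = 0.0513) and FH 2 (adjusted p = 0.0661).

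Among 20 Hippo pathway and TEAD genes, 1 were called higher, 9 lower and 10 neither. The 1 that rose was Wwc1 again, and 3 fell without LBDXL 3W 2, 5 without BM 3W 1 and 18 with total counts as the scale. Vgll3, a TEAD cofactor, had 0.634 and 0.242 CPM in LBDXL 3W, against 69.9 and 74.6 in BM 3W (log2 fold change -7.32 ± 0.67, adjusted p = 3.47e-05). Tead2, a TEAD factor of progenitor cells, had 5.02 and 0.423 CPM in LBDXL 3W, against 40.4 and 52.9 in BM 3W (log2 fold change -4.08 ± 0.95, adjusted p = 0.00574), and Tead3 9.25 and 7.61 CPM, against 16.4 and 23.2 (log2 fold change -1.23 ± 0.27, adjusted p = 0.00454). The 3 were lower in each LBDXL 3W library than in either BM 3W library.

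Genes of the contractile cytoskeleton fell together. Of 33 actin and contraction genes, 1 were called higher, 25 lower and 7 neither, with a median log2 fold change of -1.53. Acta2, smooth muscle actin, had 15.2 and 9.06 CPM in LBDXL 3W, against 816 and 626 in BM 3W and 0.119 in FH (log2 fold change -5.89 ± 0.57, adjusted p = 4.80e-05). Tagln, which binds actin in contractile cells, had 20 and 14.6 CPM in LBDXL 3W, against 436 and 458 in BM 3W (log2 fold change -4.69 ± 0.28, adjusted p = 3.39e-06). Actn1, the actin crosslinker of stress fibres, had 44.6 and 24.2 CPM in LBDXL 3W, against 340.2 and 408 in BM 3W and 49.8 in FH (log2 fold change -3.44 ± 0.29, adjusted p = 2.10e-05). Acta2 and Tagln stayed above FH in LBDXL 3W, whereas Actn1 lay at or below it. Acta2 is also on the stellate cell list, whose sum was 785 and 359.6 CPM in LBDXL 3W, against 3908 and 2276 in BM 3W, and the part of those cells was not tested. Rhob, a small GTPase, had 51 and 22.3 CPM in LBDXL 3W, against 115 and 169.7 in BM 3W (log2 fold change -1.96 ± 0.38, adjusted p = 0.00217). Myl12b, a regulatory myosin light chain chosen after its values were seen, was the 1 that rose (log2 fold change 0.87 ± 0.24, adjusted p = 0.0144), and not with total counts as the scale (adjusted p = 0.855), without LBDXL 3W 1 (adjusted p = 0.106) or without BM 3W 2 (adjusted p = 0.0781).

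**Figure D5:**
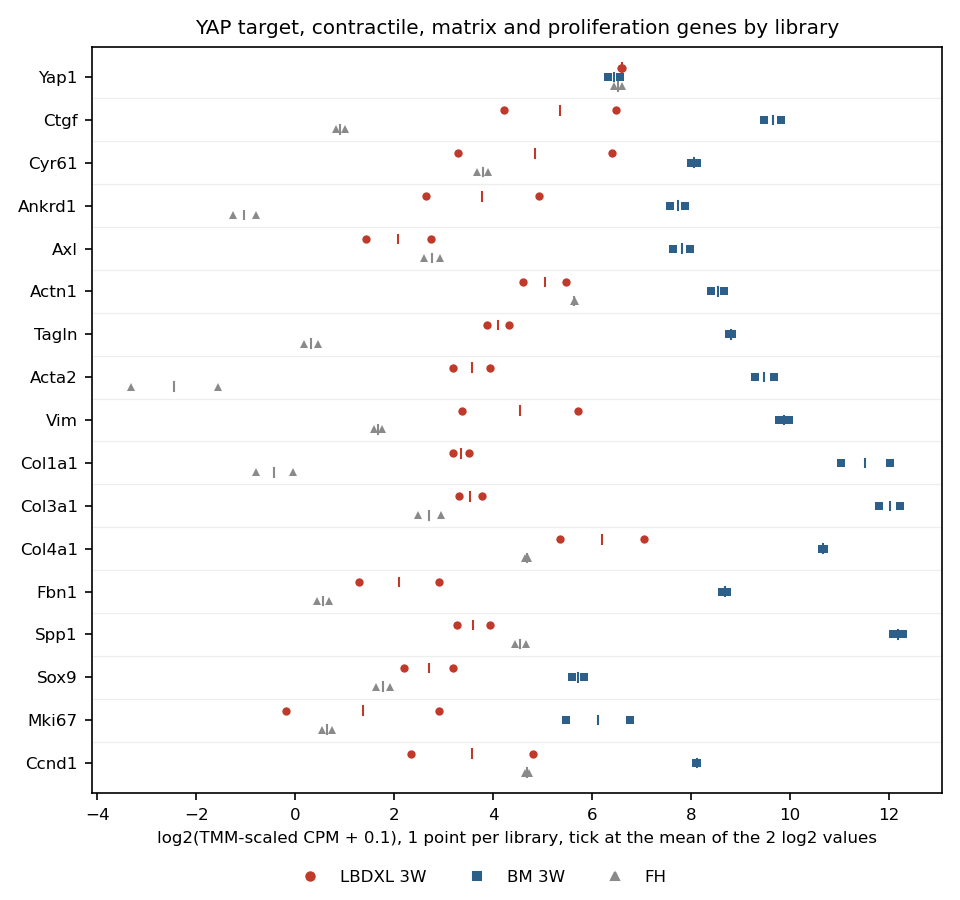
Levels of YAP target, contractile, matrix, biliary and proliferation genes as log2(CPM + 0.1), with 1 point per library and a tick at the mean of the log2 values, for LBDXL 3W (red circles), BM 3W (blue squares) and FH (grey triangles). Yap1 lies at 97.7 and 96.3 CPM in LBDXL 3W, against 80.2 and 95.5 in BM 3W, while every other gene drawn is lower in both LBDXL 3W libraries than in either BM 3W library.

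Extracellular matrix genes fell by wide margins. Of 20 collagens, 1 were called higher, 17 lower and 2 neither, with a median log2 fold change of -4.45, and of 33 matrix glycoproteins and modifiers, 0 were called higher, 27 lower and 6 neither, with a median of -4.62. Col1a1, a subunit of the main fibrillar collagen (chromosome 11, 94936224-94953042), had 11.3 and 9.06 CPM in LBDXL 3W, against 2092 and 4165 in BM 3W and 0.674 in FH (log2 fold change -8.27 ± 0.84, adjusted p = 5.93e-05). Col3a1, of type III collagen, had 13.5 and 9.79 CPM in LBDXL 3W, against 3581 and 4815 in BM 3W and 6.55 in FH (log2 fold change -8.49 ± 0.88, adjusted p = 6.49e-05). Col4a1, of basement membranes, had 133 and 40.6 CPM in LBDXL 3W, against 1659 and 1600 in BM 3W and 25.5 in FH (log2 fold change -4.23 ± 0.48, adjusted p = 1.11e-04). The fibrillar chains were high in both BM 3W libraries and low in both LBDXL 3W libraries, where Col1a1, Col3a1 and Col4a1 still stood above FH. Fbn1, fibrillin of elastic microfibrils, had 7.45 and 2.36 CPM in LBDXL 3W, against 399 and 427 in BM 3W (log2 fold change -6.39 ± 0.49, adjusted p = 1.30e-05). Col18a1, a basement membrane collagen that hepatocytes make, was the 1 collagen that rose, at 1059.8 and 1498 CPM in LBDXL 3W, against 271 and 208 in BM 3W and 1411 in FH (log2 fold change 2.42 ± 0.48, adjusted p = 0.00235), and was chosen after its values were seen.

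Of 27 matrix proteases and inhibitors, 1 were called higher, 21 lower and 5 neither, with a median log2 fold change of -5.01. Timp2, an inhibitor of matrix metalloproteinases, had 8.46 and 4.77 CPM in LBDXL 3W, against 392 and 262 in BM 3W (log2 fold change -5.62 ± 0.36, adjusted p = 3.86e-06). Adamts2, which trims procollagen, had 7.93 and 5.2 CPM in LBDXL 3W, against 228 and 196 in BM 3W (log2 fold change -5.01 ± 0.30, adjusted p = 3.39e-06). Mmp15, a membrane metalloproteinase chosen after its values were seen, was the 1 that rose (log2 fold change 1.68 ± 0.38, adjusted p = 0.00483), and not with total counts as the scale (adjusted p = 0.0666). Of 19 integrins, the receptors of matrix, 0 were called higher, 17 lower and 2 neither, with a median of -3.05. Itgb5, a chain that pairs with alpha V, had 91.4 and 91.8 CPM in LBDXL 3W, against 223 and 198 in BM 3W (log2 fold change -1.20 ± 0.20, adjusted p = 8.60e-04). Stellate cells and fibroblasts make much of this matrix in liver, and the values of their markers are given above beside the same groups, with their part not tested.

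Of 24 genes of TGF-beta and activin signalling, which drives matrix production, 0 were called higher, 19 lower and 5 neither, with a median log2 fold change of -1.89. Tgfb3, a ligand, had 3.17 and 1.39 CPM in LBDXL 3W, against 51.4 and 63 in BM 3W (log2 fold change -4.64 ± 0.50, adjusted p = 8.76e-05), and Smad7, the inhibitor that the pathway induces, 4.39 and 1.63 CPM, against 17.6 and 22.6 (log2 fold change -2.73 ± 0.41, adjusted p = 5.32e-04). Of 20 genes of epithelial to mesenchymal transition, 0 were called higher, 11 lower and 9 neither. Vim, the mesenchymal intermediate filament, had 52.6 and 10.3 CPM in LBDXL 3W, against 881 and 1009 in BM 3W and 3.09 in FH (log2 fold change -4.91 ± 0.63, adjusted p = 2.09e-04). Cdh1, the epithelial cadherin, fell as well, at 71.5 and 44.2 CPM in LBDXL 3W, against 235 and 181 in BM 3W and 92.9 in FH (log2 fold change -1.85 ± 0.26, adjusted p = 3.39e-04). Gjb2, a gap junction connexin of hepatocytes, went the other way, with 304 and 326 CPM in LBDXL 3W, against 37.2 and 11.4 in BM 3W (log2 fold change 3.69 ± 0.47, adjusted p = 2.16e-04).

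Biliary and progenitor genes were lower in LBDXL 3W. Of 22 tested, 0 were called higher, 15 lower and 7 neither, with a median log2 fold change of -3.73, and 9 fell without LBDXL 3W 2. Sox9, a factor of bile ducts and injured hepatocytes, had 9.04 and 4.53 CPM in LBDXL 3W, against 48.6 and 57.1 in BM 3W and 3.33 in FH (log2 fold change -2.96 ± 0.59, adjusted p = 0.00247). Spp1, osteopontin, had 15.2 and 9.61 CPM in LBDXL 3W, against 4338 and 5038 in BM 3W and 23.5 in FH (log2 fold change -8.56 ± 0.86, adjusted p = 5.68e-05). Spp1 is made by ducts and by macrophages, whose marker sum was 35.6 and 42.2 CPM in LBDXL 3W, against 3823 and 4463 in BM 3W, and the part of each was not tested. Afp, the fetal serum protein, had 40.9 and 23.8 CPM in LBDXL 3W, against 793 and 259 in BM 3W and 2.06 in FH (log2 fold change -4.02 ± 0.85, adjusted p = 0.00334). Krt7, a duct keratin, had 1.59 and 0.121 CPM in LBDXL 3W, against 21 and 18 in BM 3W (log2 fold change -4.48 ± 0.87, adjusted p = 0.00214). The groups did not overlap for Sox9, Spp1, Afp or Krt7.

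Of 26 proliferation genes, 0 were called higher, 20 lower and 6 neither, with a median log2 fold change of -2.73, and 9 fell without LBDXL 3W 2 and 10 without BM 3W 1. Mki67, a marker of cycling cells, had 7.4 and 0.785 CPM in LBDXL 3W, against 108 and 44.3 in BM 3W and 1.47 in FH (log2 fold change -4.21 ± 1.04, adjusted p = 0.00783). Ccnd1, cyclin D1, which carries cells into the cycle, had 28 and 4.95 CPM in LBDXL 3W, against 277 and 280.1 in BM 3W and 25.7 in FH (log2 fold change -4.08 ± 0.69, adjusted p = 0.00105). LBDXL 3W library 1 was near FH for Ccnd1 and above FH for Mki67, and library 2 was below FH for both. Plk1, a mitotic kinase, had 0.634 and 0.483 CPM in LBDXL 3W, against 10.4 and 6.08 in BM 3W (log2 fold change -3.86 ± 0.72, adjusted p = 0.00176).

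Of 19 Notch pathway genes, 2 were called higher, 9 lower and 8 neither. The 2 that rose were the ligands Dll1 and Dll4, at log2 fold changes of 2.95 and 3.66, chosen after their values were seen. Dll4 had 5.6 and 0.121 CPM in LBDXL 3W, against 0.171 and 0.27 in BM 3W, so that its rise was that of LBDXL 3W 1 and the groups overlapped, and without LBDXL 3W 1 its sign turned (log2 -0.84). Its call was also lost without BM 3W 1, BM 3W 2 and each single library of BM 3W Yap-/-, FH Yap-/- and FH (adjusted p between 0.0564 and 0.0622 for those of the last 3 groups). Notch3, a receptor of mural and mesenchymal cells, had 0.264 and 0.302 CPM in LBDXL 3W, against 57.1 and 26.9 in BM 3W (log2 fold change -7.18 ± 0.92, adjusted p = 2.94e-04). Jag1, a ligand, had 12.2 and 4.11 CPM in LBDXL 3W, against 101 and 142 in BM 3W (log2 fold change -3.89 ± 0.56, adjusted p = 4.01e-04), and the target Hes1 6.24 and 2.66 CPM, against 35.2 and 38.5 (log2 fold change -3.04 ± 0.39, adjusted p = 2.05e-04). All 3 were lower in LBDXL 3W without overlap. Of 23 Wnt ligands and regulators, 1 were called higher, 10 lower and 12 neither. Of these 4 fell without LBDXL 3W 2 and 6 without BM 3W 2, and the 1 that rose was the receptor Fzd4, chosen after its values were seen (log2 fold change 1.25 ± 0.44, adjusted p = 0.0395), which did not pass without LBDXL 3W 2, BM 3W 1 or BM 3W 2 (adjusted p = 0.227, 0.119 and 0.141), nor without each single library of FH Yap-/- and FH (adjusted p between 0.0557 and 0.0645). Of 27 receptor tyrosine kinase ligands and feedback genes, 1 were called higher, 16 lower and 10 neither. Wls, which carries Wnt ligands to the surface, had 3.75 and 1.81 CPM in LBDXL 3W, against 102 and 135 in BM 3W (log2 fold change -5.40 ± 0.43, adjusted p = 1.59e-05). Etv5, a target of ERK signalling, had 5.44 and 1.99 CPM in LBDXL 3W, against 41.2 and 32.1 in BM 3W (log2 fold change -3.29 ± 0.46, adjusted p = 3.38e-04). Erbb3, a receptor that pairs with EGFR in hepatocytes, was the 1 that rose, at 104 and 167 CPM in LBDXL 3W, against 18.2 and 15.6 in BM 3W (log2 fold change 3.0 ± 0.36, adjusted p = 1.46e-04).

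Inflammatory genes fell with the macrophage markers, whose summed levels are given above and whose part in these falls was not tested. By fitted fold, the 12 largest falls were led by Cd84, Dock2 and Cd180, leukocyte genes at 0 counts in both LBDXL 3W libraries. Fitted folds of genes at 0 are no measure of size, so that this order does not rank the falls. Cd84, a leukocyte adhesion receptor, had 121 and 63.3 CPM in BM 3W and was at least 543-fold lower in LBDXL 3W (adjusted p = 1.26e-05). Csf1r, the receptor that macrophages need, had 0.529 and 0.483 CPM in LBDXL 3W, against 239 and 174 in BM 3W (log2 fold change -8.65 ± 0.40, adjusted p = 1.41e-06), and Lyz2, lysozyme of macrophages, 3.59 and 2.17 CPM, against 1747 and 2679 (log2 fold change -9.58 ± 0.97, adjusted p = 5.92e-05). Gpnmb, a glycoprotein of lipid-laden macrophages, had 0.899 and 1.09 CPM in LBDXL 3W, against 2490.1 and 1149 in BM 3W (log2 fold change -10.83 ± 0.68, adjusted p = 3.86e-06). These genes were at or near 0 in both LBDXL 3W libraries and high in both BM 3W libraries. Of 25 chemokine, cytokine and NF-kB genes, 1 were called higher, 15 lower and 9 neither, and of 24 interferon response genes, 1 were called higher, 11 lower and 12 neither, with 18 falls with total counts as the scale. The chemokine that rose was Ccl9, at 71.9 and 408 CPM in LBDXL 3W, against 44.9 and 55 in BM 3W (log2 fold change 2.26 ± 0.60, adjusted p = 0.0112), chosen after its values were seen. Its call was lost without LBDXL 3W 2 (adjusted p = 0.249), without BM 3W 1 (adjusted p = 0.0672) and without BM 3W 2 (adjusted p = 0.0507). Stat2, a transducer of interferon signals, also rose (log2 fold change 1.21 ± 0.24, adjusted p = 0.00274). The call of Stat2 was lost with total counts as the scale and in limma on FPKM. Csf1, the ligand of Csf1r, had 25.8 and 7.67 CPM in LBDXL 3W, against 152 and 137 in BM 3W (log2 fold change -3.11 ± 0.50, adjusted p = 7.63e-04). Lbp, an acute phase protein that binds lipopolysaccharide, rose, at 380.1 and 152 CPM in LBDXL 3W, against 37.6 and 30.1 in BM 3W (log2 fold change 2.97 ± 0.39, adjusted p = 2.40e-04).

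In several stress programmes most members did not pass or members moved both ways. Of 21 NRF2 targets, 2 were called higher, 3 lower and 16 neither. Abcc3, an export pump, and Gstm1, a glutathione transferase, rose, at log2 fold changes of 2.44 and 3.19, while Hmox1, G6pdx and Abcc4 fell, at -3.32, -2.63 and -3.25. In edgeR without LBDXL 3W 1, 5 rose and 3 fell, and with total counts as the scale 2 rose and 6 fell. Hmox1, haem oxygenase, had 14.9 and 4.11 CPM in LBDXL 3W, against 80 and 111 in BM 3W (log2 fold change -3.32 ± 0.47, adjusted p = 3.76e-04). Of 14 heat shock genes, 3 were called higher, 1 lower and 10 neither, but with total counts as the scale 1 rose and 6 fell, and 1 rose without LBDXL 3W 2 or BM 3W 2. The chaperones Hspb8, Hspd1 and Hspe1 rose, at log2 fold changes of 2.03, 1.17 and 1.09, and Cryab, a small heat shock protein, fell, at -4.51. Hspb8 alone rose without LBDXL 3W 2 and without BM 3W 2. Among 23 members of the unfolded protein response and the integrated stress response, 8 were called higher, 1 lower and 14 neither, but 4 rose without BM 3W 1, 3 without BM 3W 2 and 2 with total counts as the scale, where 4 fell. The 1 that fell was Atf3, a stress-induced factor chosen after its values were seen (log2 fold change -0.89 ± 0.30, adjusted p = 0.0324), and 6 of the list fell without LBDXL 3W 1, against 0 without LBDXL 3W 2, BM 3W 1 or BM 3W 2. Herpud1, of protein degradation at the endoplasmic reticulum, had 524 and 996 CPM in LBDXL 3W, against 75.5 and 56.7 in BM 3W (log2 fold change 3.52 ± 0.39, adjusted p = 9.29e-05). Of 22 p53 targets and senescence genes, 3 were called higher, 8 lower and 11 neither. Those that rose were Plk3, Perp and Ei24, at log2 fold changes of 1.64, 0.99 and 2.18, the first 2 chosen after their values were seen. Perp did not pass with total counts as the scale (log2 0.18, adjusted p = 0.463). Eda2r, a p53-induced receptor, had 3.7 and 1.39 CPM in LBDXL 3W, against 36.3 and 48.7 in BM 3W (log2 fold change -4.05 ± 0.48, adjusted p = 1.36e-04), and Cdkn2b, a cell cycle inhibitor, 1.06 and 0.0604 CPM, against 27.3 and 50.8 (log2 fold change -6.07 ± 0.84, adjusted p = 4.57e-04). Of 28 cytosolic ribosomal proteins 0 passed in edgeR and 28 did not, with a median log2 fold change of 0.15. With total counts as the scale 14 of them fell.

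Genes of the clock and of sex-biased liver expression also differed. Of 19 clock genes, 9 were called higher, 2 lower and 8 neither. Cry1, a repressor of the clock, had 22.4 and 30.8 CPM in LBDXL 3W, against 6.17 and 5.93 in BM 3W (log2 fold change 2.13 ± 0.32, adjusted p = 4.92e-04). Those that fell, Nr1d1 and Bhlhe41, were chosen after their values were seen, with log2 fold changes of -1.05 and -3.25. The hour of collection is not given. Of 19 female-biased liver genes, 8 were called higher, 1 lower and 10 neither, and of 16 male-biased ones, 9 were called higher, 0 lower and 7 neither. The female-biased count was 5 without LBDXL 3W 1 and 4 without BM 3W 2, and the male-biased count 4 without LBDXL 3W 2 and 5 without BM 3W 2. The female-biased gene that fell was Prom1 (log2 fold change -4.08). Cyp2d9, a male-biased P450, had 607 and 1551 CPM in LBDXL 3W, against 39.4 and 8.54 in BM 3W and 2086 in FH (log2 fold change 5.49 ± 1.13, adjusted p = 0.00298). The summed male-biased list stood at 2408 and 3009 CPM in LBDXL 3W, against 488 and 135 in BM 3W and 62325 and 60820 in FH, and the female-biased list at 795 and 1112 CPM in LBDXL 3W, against 38.5 and 34.6 in BM 3W and 287 and 276 in FH. LBDXL 3W was thus above BM 3W in both sums, and against FH it was lower in the male-biased and higher in the female-biased sum.

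The difference of BM 1D from FH was set beside these calls, since BM 1D and FH share no library with LBDXL 3W or BM 3W. Between BM 1D and FH, 6170 of 14100 genes were called (43.8%), of which 3328 were higher in BM 1D and 2842 lower. Of the genes higher in LBDXL 3W than in BM 3W, 1652 were lower in BM 1D than in FH, which is 55.4% of the 2980 and 58.1% of the 2842 genes, where 20.2% of all tested genes were lower in BM 1D. A further 177 were higher in BM 1D than in FH (5.94% of 2980 and 5.32% of 3328). Of the genes lower in LBDXL 3W, 1212 were higher in BM 1D than in FH, which is 36.3% of 3343 and 36.4% of 3328, where 23.6% of all tested genes were higher in BM 1D, and 233 were lower (6.97% of 3343 and 8.20% of 2842). With total counts as the scale the shares were 55.5% of the rises, where 9.58% of all genes were lower in BM 1D, and 63.5% of the falls, where 50.1% of all genes were higher in BM 1D. The 1212 genes became 744 without FH 2 (23.3% of the falls, where 12.6% of all genes were higher in BM 1D), 777 without FH 1 (25.0%, where 13% were), 771 without BM 3W 2 (32.9%, where 21.8% were) and 804 without LBDXL 3W 2 (39.2%, where 24.1% were). Cps1, Arg1 and Hnf4a, which rose in LBDXL 3W, had means of 260.3, 191 and 364 CPM in BM 1D, against 13461, 2198 and 1061 in FH.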

How the data were processed

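RNA-seq of mouse hepatocytes was used: 4 libraries of LBDXL 3W and BM 3W, with 10 others in the fit. Total RNA was prepared with TruSeq Stranded mRNA and read on a HiSeq4000 in pairs, per the labels' protocols. The authors deposited raw gene counts, not normalized, and FPKM values, and their processing notes name Trimmomatic, HISAT2, Cufflinks, HTSeq, DESeq and GRCm38.p6, without versions. The sources used here do not say whether counting used strand, so genes that overlap on opposite strands are uncertain, as are copies within families such as Cyp2c, Mup and Serpina1.

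Counts of all 14 libraries were fitted with edgeR 4.0.16 (R 4.3.3) with 1 mean per group, filterByExpr (14100 of 21878 genes kept), TMM scaling, the quasi-likelihood F test and Benjamini-Hochberg adjustment over all genes kept. A standard error is the log2 fold change divided by the root of F. BM 1D against FH came from the same fit. Folds against libraries at 0 use a floor of 3 counts per library. The test was tried on simulated data of 14100 genes. Of 100 changed by 1 on the log2 scale 6 were recovered, and of 100 changed by 2, 64. All other genes were left unchanged, and 2 of them were falsely called. In the data 44.8% of tested genes were called. The Benjamini-Hochberg cut-off depends on the share of genes changed, so these counts do not carry over to the data. Whether the count of false calls holds where groups differ in spread was not tested. Genes over 1 apart on the log2 scale between a group's libraries were 23.1% in LBDXL 3W, 10.6% in BM 3W and 6.17% in FH. Depth of 15501005 to 21220365 counts and 2 libraries per group limit precision, and floors cover counting error only. Alternatives were other scalings, DESeq2 1.42.0, no filter, limma 3.58.1 on log2(FPKM + 1) and log2(FPKM + 0.1), a replicate block, and leaving out libraries.

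Genes could be named if in a fixed panel, among the 12 largest rises or falls without overlap and with a mean of at least 10 CPM, among the 10 largest rises or falls in CPM, among the 4 smallest p of a list, or a cell type marker. Others are said to be chosen after their values were seen. Members and lists were chosen with earlier results of these data known. RefSeq symbols matched 21727 of the 21878 gene IDs. Promoters and coordinates are RefSeq's on GRCm38.p6. Some genes that the rule names are not reported here.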

Additional observations from a re-analysis of the deposited data

How the results depend on the processing

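Of 6323 genes called between LBDXL 3W and BM 3W (2980 higher, 3343 lower), total counts as the scale gave 1135 higher and 6650 lower (14.6% higher, against 47.1%), and DESeq2's size factors in edgeR 40.0% higher. The fit of the 4 libraries alone called 3997 (1437 higher). limma on log2(FPKM + 1) gave 1109 higher and 5653 lower, on log2(FPKM + 0.1) 1126 and 5580, and without a filter 1134 and 7530. DESeq2's Wald test, no filter, and removal of the 20 most abundant genes gave 6382, 6093 and 6348 calls. Leaving out 1 library at a time gave 3993 to 6549 calls, 1812 to 3099 higher and 2049 to 3458 lower, and for BM 1D against FH 3842 to 6517, the lowest without FH 2 and next without FH 1 (3919). A lone library was taken to vary like the other groups. Deviations of like-numbered LBDXL 3W and BM 3W libraries from their group means had r = 0.053 over 14100 genes. With 2 libraries per group, this value cannot show whether like-numbered samples were paired. The replicate block gave 6624 calls, and within the 4 libraries alone 1794 (508 higher, 1286 lower). Of 147 named genes called, 74 were called under every alternative, 112 under every one but the block on 4 libraries, 134 with total counts and 128 in the 4 libraries alone. Signs turned in some genes. Yap1 had a log2 fold change of -0.0066 with DESeq2's size factors, -0.0072 in DESeq2, -0.69 with total counts, and -0.66, -0.69 and -0.66 in the 3 limma fits. Wwc1 had -0.21 with total counts and -0.079, -0.082 and -0.079 in the limma fits. Leaving out 1 library gave -1.17 to 4.52 for Cdh5, -0.84 to 4.62 for Dll4 and -0.62 to 4.38 for Lyve1, each lowest without LBDXL 3W 1, and -0.60 (without LBDXL 3W 2) to 5.03 (without BM 3W 1) for Cyp2e1. Timd4 did not turn but gave -4.43 to 0. In the limma fits Perp, called in the text, came to 0.0067, 0.0064 and 0.0067 and did not pass. Without LBDXL 3W 1 and BM 3W 2 together, chosen after seeing the data, 4985 genes were called, and Cdh5, Dll4 and Lyve1 had -1.23, -0.48 and -0.83. For each of these, the cause was not tested.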
